A study of Bos taurus with 6 samples.

Results

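The mitochondrial ribosomal proteins are the protein subunits of the ribosome that works inside mitochondria. They were studied in bovine granulosa cells exposed to fibroblast growth factor 18 (FGF18). Members were all genes whose symbol in the platform annotation starts with MRPL or MRPS and a digit, plus MRP63, the older name of MRPL57. This gave 76 genes of 15229 named genes on the array, 47 named for the large subunit (MRPL57 included) and 29 for the small one, read by 129 probes. The probe that reads each gene was chosen by its mean intensity over the 6 arrays, the brightest one being taken. The family was picked for description with its ratios of FGF18 over control already known, so these ratios are given below as values and no test of the family is drawn from them.

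Granulosa cells surround the oocyte and make steroids. They came from follicles of 2 to 6 mm of Holstein crossbred cows at an abattoir and were kept for 5 days in medium without serum, with FSH and insulin at 10 ng/ml each. FGF18-treated cells received FGF18 at 10 ng/ml for 2 h, and control cells, which shared the same medium, FSH and insulin, were untreated. On each of 6 two-colour arrays RNA of treated and of control cells was hybridised together, in 3 biological replicates with 2 arrays of opposite dye each. No label says how many animals or pools a replicate holds, or whether control cells were taken at the start or at the end of the exposure.

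The mitochondrial ribosome translates the few proteins that mitochondrial DNA encodes, all of them subunits of the respiratory chain and ATP synthase. Its RNAs come from mitochondrial DNA, while every one of its proteins is encoded in the nucleus, made in the cytosol and imported. Part of the family descends from bacterial ribosomal proteins, and part is found in mitochondria only. Much of the protein inventory was first worked out on bovine liver. In granulosa cells mitochondria also house the first step of steroid synthesis, and in humans inherited defects of MRPS22, MRPS7 and MRPL50 have been linked to ovarian insufficiency.

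All 76 genes exceeded background on 3 or more arrays in a condition, and 74 exceeded it in both channels of all 6 arrays. The exceptions were MRPS9, read on 5 arrays in each condition, and MRPS12, read on 3 arrays in FGF18-treated and on 5 in control cells. Over the whole array 12200 of 15229 genes reached 3 arrays. Of 10 granulosa markers 9 did so as well, with FOXL2 above background on 0 arrays. Markers of other cells were also read: 6 of 6 for theca and stroma, 6 of 6 for leukocytes and blood, 4 of 5 for endothelium and 4 of 6 for the oocyte. In replicates 1, 2 and 3 the median ratio was 0.01, 0.42 and 0.05 for granulosa markers, 0.06, -0.32 and -0.01 for leukocyte and blood markers, and 0.00, -0.05 and 0.00 for theca and stroma. Their part in the ratios below was not tested, and in such bulk RNA fewer cells of a type and less RNA per cell cannot be told apart.

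Ratios are log2 of FGF18 over control, so 1 stands for 2-fold. MRPL57, a mitochondria-specific protein of the large subunit, had the highest ratio of the family. Its normalized log2 level in FGF18-treated cells was 10.01, 10.99 and 10.47 in replicates 1, 2 and 3, against 9.11, 9.95 and 9.72 in control cells. In each replicate the FGF18 level lay above the control level, and 12.1% of all genes likewise had ratios above 0 in all 3 replicates. The ratios were 0.90, 1.04 and 0.75, with a mean of 0.89 ± 0.14 (SD, n = 3), or 1.86-fold. On single arrays they ran from 0.56 to 1.22, all above 0. Among all 15229 genes only 3 had a higher mean ratio. MRPL57 nevertheless had an adjusted p of 0.986 in limma, where 0 of 15229 genes (0%) and 0 of 76 members had an adjusted p under 0.05. A single probe reads MRPL57 on this array, so no second probe can be set beside it.

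No other member reached a mean of 1.5-fold above control, which makes 1 of 76 members on that side, where 0.315% of all genes lay. The next highest was MRPL23, a protein at the exit of the peptide tunnel, with 0.74, 0.04 and 0.57 in replicates 1, 2 and 3. Its second probe repeated this profile with 0.70, 0.17 and 0.65. MRPL44, a protein with a nuclease-like fold needed to build the large subunit, had 0.60, 0.53 and 0.09, and MRPL13 had 0.60, 0.49 and 0.10. In both of these genes replicate 3 stood lowest. The second probe of MRPL13 was nearer 0, with 0.04, 0.41 and 0.07, but also dimmer, with a mean log2 intensity of 7.01 against 9.40. MRPL20 reached its mean of 0.40 through replicate 2 alone, with 0.12, 1.13 and -0.03. MRPL28 was more even, with 0.23, 0.46 and 0.44, but of its 3 other probes 1 gave a mean of 0.47 and the rest gave 0.07 and 0.01.

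In the small subunit the highest ratios belonged to MRPS33 and MRPS23, both mitochondria-specific. MRPS33 had 0.65, 0.46 and 0.05 in replicates 1, 2 and 3, and its second probe gave 0.67, 0.41 and -0.01. MRPS23 had 0.57, 0.28 and 0.26, while its other probes had means of 0.29 and 0.04. The probe with 0.04 was dim, with a mean log2 intensity of 6.80 against 8.67 for the brightest. MRPS17, which descends from a bacterial protein of the ribosome body, had 0.37, 0.44 and 0.23 with a mean of 0.34 ± 0.11 (SD, n = 3). Its dimmer second probe, with a mean log2 intensity of 7.15 against 9.28, gave 0.18, 0.22 and -0.03. MRPS27, an RNA-binding protein with pentatricopeptide repeats, had 0.14, 0.56 and 0.21, and its second probe was not above background on any array. MRPS30, which structures place in the large subunit despite its name, had 0.42, 0.26 and 0.18. By their brightest probes all 5 genes lay above 0 on all 6 arrays, which was itself 1 of the rules for naming members here. MRPS25 (mean 0.36) and MRPS26 (mean 0.35) ranked above MRPS17. Each had 1 replicate below 0, MRPS25 with -0.02 in replicate 1 and MRPS26 with -0.003 in replicate 2.

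**Figure D1:**
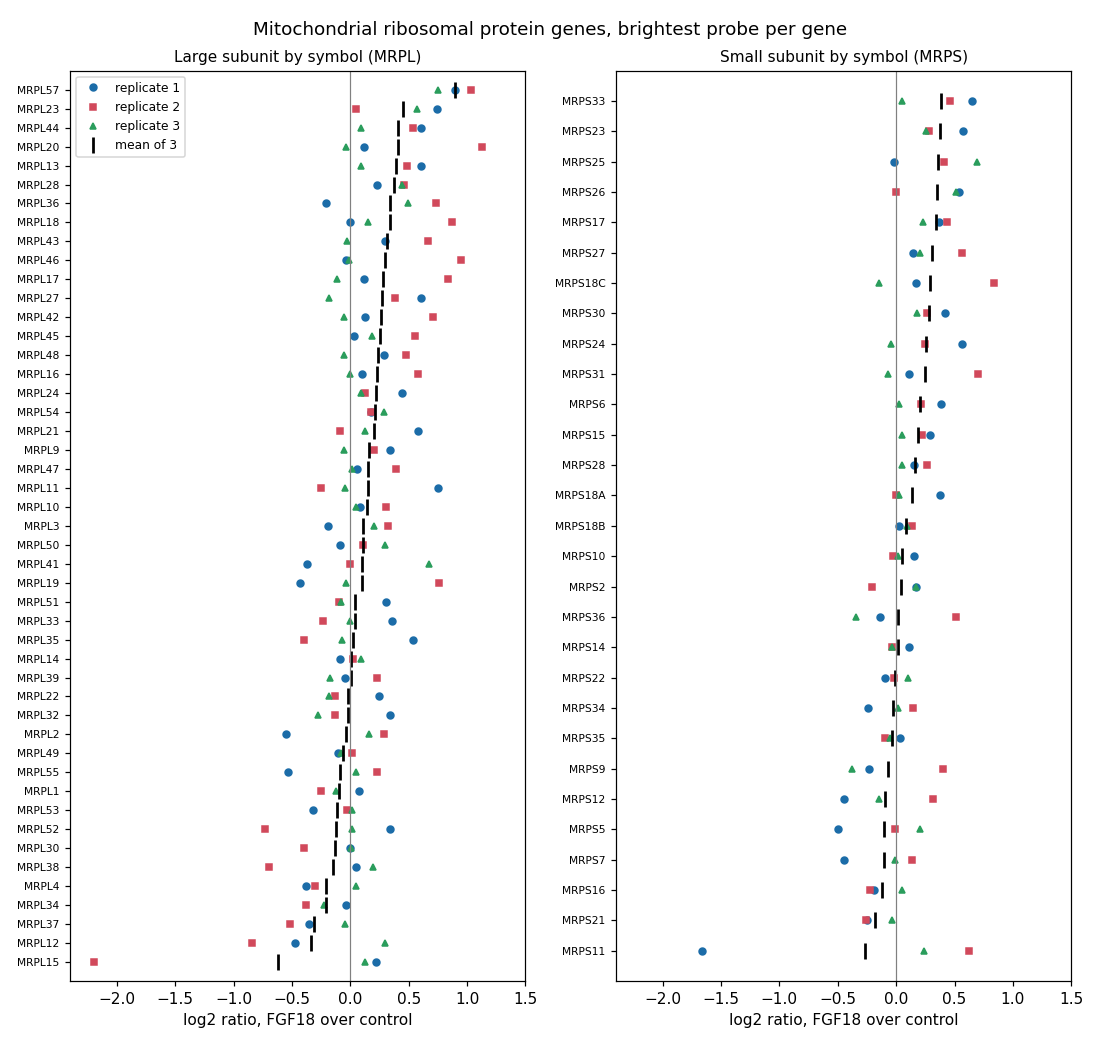
Log2 ratio of FGF18 over control (x axis) for each of the 76 genes (y axis), ordered by mean within the large and small subunit as named by symbol; points are the 3 replicates and the black tick is their mean. MRPL57 stands apart at the top with 3 replicates between 0.75 and 1.04, and single replicates of MRPL15 (-2.20) and MRPS11 (-1.66) lie far to the left.

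On the other side 1 member, MRPL15, had a mean at least 1.5-fold below control, where 1.47% of all genes did. MRPL15, a large subunit protein with a bacterial counterpart, had 0.22, -2.20 and 0.12 in replicates 1, 2 and 3, so its mean of -0.62 ± 1.37 (SD, n = 3) came from replicate 2. There its control level was 12.34 against 9.62 and 9.89 in replicates 1 and 3, while its FGF18 level of 10.14 was near the 9.84 and 10.02 of the others. Its other 2 probes gave 0.10 and 0.03 in replicate 2, but they were dimmer, with mean log2 intensities of 8.44 and 6.93 against 10.29. MRPL12, the stalk protein that carries translation factors to the ribosome, had -0.47, -0.85 and 0.29, and its dimmer second probe gave 0.06, 0.12 and 0.12. MRPL37 had -0.36, -0.52 and -0.05. MRPL34 had -0.04, -0.38 and -0.22, and MRPL4, which lines the peptide tunnel, had -0.38, -0.30 and 0.05. MRPL38, a protein of the central protuberance, had 0.04, -0.69 and 0.20, and its second probe gave -0.07 in replicate 2. Of these 6 genes MRPL37 and MRPL34 lay below 0 in every replicate.

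MRPS11, a protein of the small subunit platform, showed the widest spread of the small subunit. It had -1.66, 0.63 and 0.24 in replicates 1, 2 and 3, and was the only member at least 1.5-fold on one side in a replicate and on the opposite side in another. Both arrays of replicate 1 lay far below 0, at -1.47 and -1.86. Its 3 other probes gave -1.28, -1.05 and -0.99 in replicate 1, and between 0.07 and 0.63 in replicates 2 and 3. All 4 probes of MRPS11 therefore placed replicate 1 below control and replicates 2 and 3 above it. The low value of MRPL15 in replicate 2 was seen only by the brightest of its 3 probes.

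**Figure D2:**
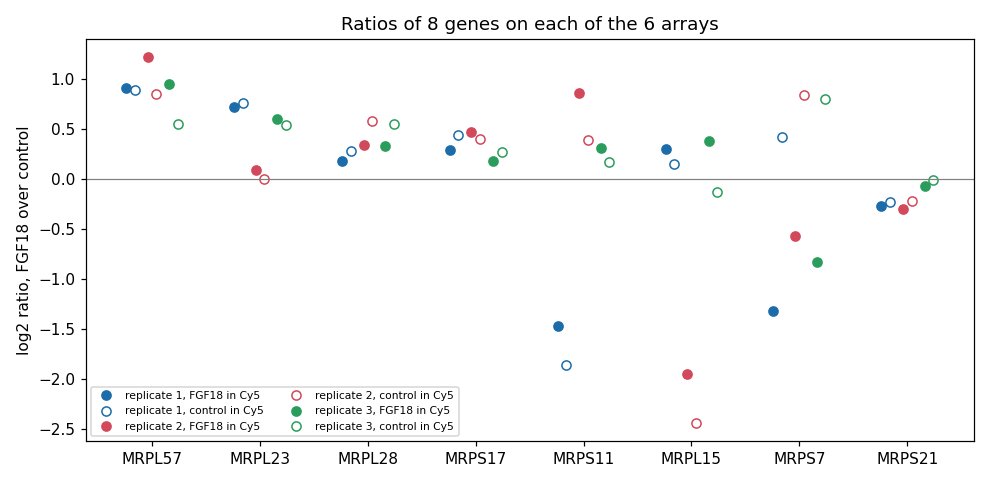
Log2 ratio of FGF18 over control (y axis) of 8 genes on each of the 6 arrays; colour is the replicate, filled points have FGF18 in Cy5 and open points have the control in Cy5. MRPL57 is above 0 on all 6 arrays, MRPS11 and MRPL15 each depart in 1 replicate on both arrays, and MRPS7 takes opposite signs in the 2 orientations.

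The other wide spreads were those of MRPL20 (SD 0.63) and MRPL19 (SD 0.60), the latter with -0.43, 0.76 and -0.04. The smallest spreads were those of MRPS18B, MRPL49, MRPS35 and MRPL54, with SDs from 0.06 to 0.07. Of these MRPL54, a mitochondria-specific protein of the large subunit, had a mean of 0.21 with 0.18, 0.17 and 0.29, though its second probe gave 0.72, -0.62 and 0.16. MRPS18B, MRPL49 and MRPS35 had means of 0.08, -0.06 and -0.04. In replicates 1, 2 and 3 MRPS18B had 0.02, 0.14 and 0.09, MRPL49 had -0.11, 0.01 and -0.08, and MRPS35 had 0.03, -0.09 and -0.06. Over the family the median SD between replicates was 0.27, and in 54 of 76 genes the SD was larger than the size of the mean ratio. Over all genes the median SD was 0.16, and the SD was the larger in 12245 of 15229.

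Of the genes linked to ovarian insufficiency in humans, MRPS22 had -0.10, -0.02 and 0.10 in replicates 1, 2 and 3, and its second probe -0.57, 0.62 and -0.02. MRPL50 had -0.09, 0.10 and 0.30. MRPS7, an RNA-binding protein of the small subunit head, had -0.45, 0.13 and -0.01 by its brightest probe. Its second probe gave 0.42, 0.41 and 0.25 and was above 0 on all 6 arrays. None of the 3 genes had replicates on 1 side of 0 by its brightest probe.

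Over the family 51 of 76 genes had a mean ratio above 0, where 7112 of all 15229 genes did. The median was 0.11, from the lower quartile of -0.04 to the upper one of 0.27, where all genes had a median of -0.01. Median centring of the arrays in place of loess gave 0.22 for the family and 0.00 for all genes. In replicates 1, 2 and 3 the family's median was 0.11, 0.21 and 0.03, and 47, 50 and 45 of its genes lay above 0. Of all 15229 genes 7577, 7211 and 7728 did. On single arrays the family's median ran from 0.01 to 0.23, lowest on both arrays of replicate 3. With subunits assigned by symbol alone, the median was 0.11 for large and 0.08 for small subunit genes, MRPS30 being counted as small. Their replicate medians were 0.10, 0.17 and 0.01 and 0.11, 0.22 and 0.05. The median was 0.09 for the 48 genes with a bacterial counterpart and 0.23 for the 28 mitochondria-specific ones, with replicate medians of 0.11, 0.17 and 0.03 and of 0.08, 0.24 and 0.03. These differences between subgroups were smaller than the range of the replicate medians in each.

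Ratios above 0 in all 3 replicates were found for 20 of 76 members (26.3%), where 12.1% of all genes had them, and ratios below 0 in all 3 for 3 members (3.95%), MRPL37, MRPL34 and MRPS21, where 12% of all genes had them. On all 6 arrays 11 members (14.5%) lay above 0 against 4.47% of all genes. They were MRPL57, MRPL23, MRPL13, MRPS33, MRPL28, MRPS23, MRPS17, MRPS27, MRPS30, MRPL24 and MRPL54. MRPL24 had 0.44, 0.13 and 0.09, and its second probe 0.22, -0.07 and 0.12. MRPS21, a small subunit protein, was the only member below 0 on all 6 arrays, with -0.25, -0.26 and -0.04 in the 3 replicates, where 2.72% of all genes lay. In limma 8 of 76 members (10.5%) had an unadjusted p under 0.05, all with ratios above 0, against 3.49% of all genes, or 351 above and 180 below 0. With median centring these were 6 members, and 303 genes above and 66 below 0. The 8 members were MRPL57, MRPL44, MRPL13, MRPL28, MRPS23, MRPS17, MRPS30 and MRPL54. With the 6 arrays as entries and the replicate as a random block the members numbered 15 (19.7%), where 7.88% of all genes were under that p. With an intensity trend and robust prior they were 2 (2.63%), below the 3.09% of all genes, and without replicate 1 they were 4 (5.26%), near the 4.11% of all genes. Because the family was chosen with these ratios known, nothing is read from its counts.

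**Figure D3:**
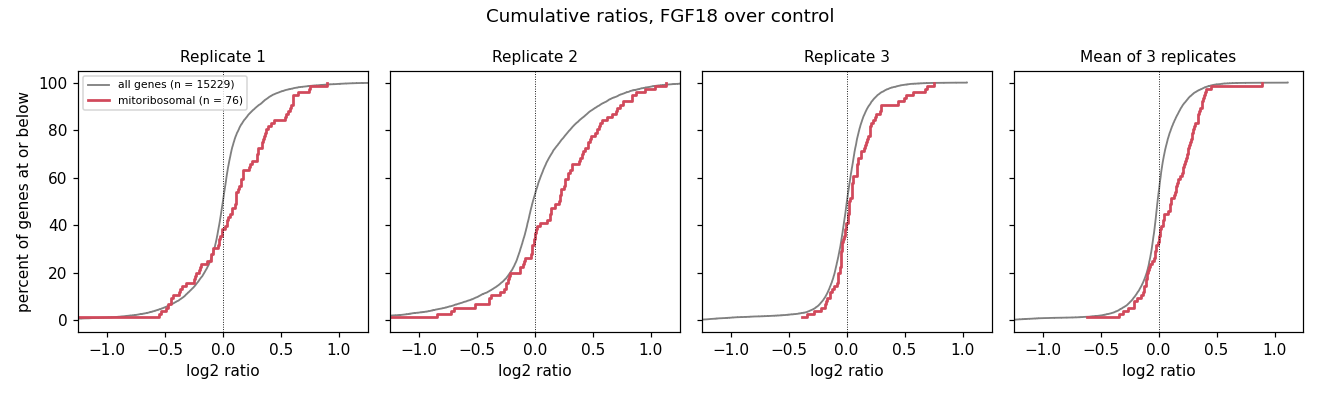
Cumulative percent of genes (y axis) at or below a log2 ratio of FGF18 over control (x axis, trimmed at both ends) for all 15229 genes in grey and the 76 family members in red, in each replicate and for the mean. The red curve crosses 50% at 0.11, 0.21 and 0.03 in replicates 1, 2 and 3, and the grey curves cross it near 0.

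The replicates did not order the members alike. Across the 76 genes, which are not independent, the ratios of replicates 1 and 2 correlated at 0.01, those of 1 and 3 at 0.05 and those of 2 and 3 at 0.06. Over all 15229 genes the same pairs correlated at -0.26, -0.07 and 0.39 (-0.24, 0.06 and 0.11 by rank). The 2 arrays of a replicate, which are taken to share their RNA, correlated at 0.79, 0.81 and 0.35 over the 76 members in replicates 1, 2 and 3. Thus in replicates 1 and 2 the members' ratios ran broadly alike on both arrays, yet this order did not carry over to the other replicates. Single members could still differ between the arrays, as MRPS7 did with -1.32 and 0.42 in replicate 1. In all, 53 of 76 members had ratios on both sides of 0 among the 3 replicates. Mixed signs were common on the whole array too, where 12.1% of genes lay above and 12% below 0 in all 3. At least 1.5-fold above control were 7 members in replicate 1, 12 in replicate 2 and 3 in replicate 3, or 9.21%, 15.8% and 3.95%, where 2.63%, 8.68% and 0.44% of all genes were. At least 1.5-fold below it were 1, 4 and 0 members, or 1.32%, 5.26% and 0%, against 3.93%, 8.004% and 1.93% of all genes. MRPL57 was the only gene of the family at least 1.5-fold above control in every replicate.

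A further 53 probes read 39 of the members, and 48 of them, for 35 genes, exceeded background on 3 or more arrays in a condition. Of these 48 probes 36 had a mean on the same side of 0 as the gene's brightest probe, and 34 had a mean above 0, with a median of 0.08. Averaged per gene, they correlated with the brightest probe at 0.69, 0.30 and 0.65 in replicates 1, 2 and 3 (n = 35 genes that share arrays and RNA). The value for replicate 2 includes MRPL15, at -2.20 by its brightest probe. MRPL15 was also the only gene with a probe that differed by 1.5-fold or more from its brightest one in the mean.

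**Figure D4:**
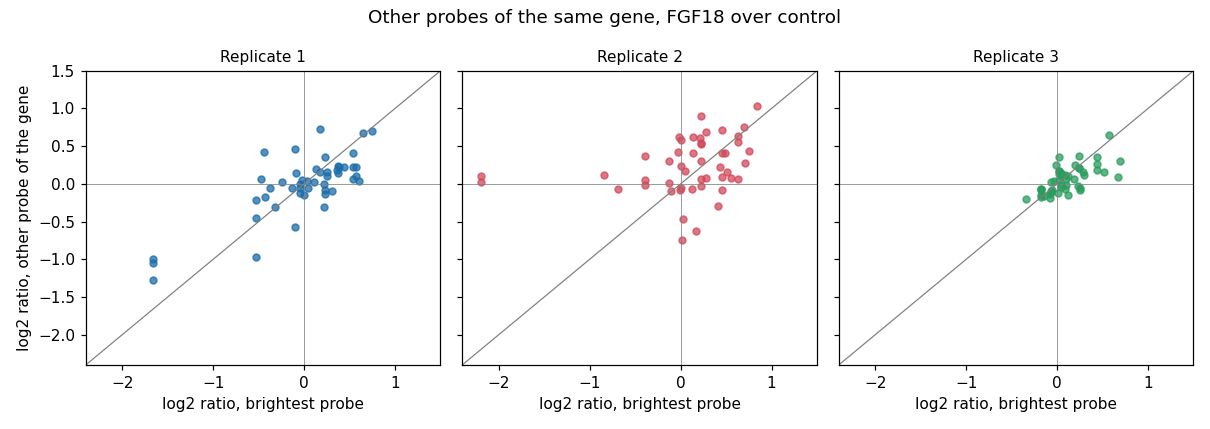
Log2 ratio of FGF18 over control by the brightest probe of a gene (x axis) and by each of its other probes above background (y axis), 48 probes of 35 genes, in the 3 replicates; the diagonal marks equal ratios. The 3 points at -1.66 in replicate 1 are MRPS11, all below 0 on the y axis, and the 2 at -2.20 in replicate 2 are MRPL15, near 0 on the y axis.

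How far a ratio depended on which RNA carried which dye was a measure the choice of members did not use, and it was tested over all genes as the ratio on arrays with Cy5-labelled FGF18 RNA minus that on arrays with Cy5-labelled control RNA. The scanner files of an orientation share a number, taken here as that of 1 slide, which leaves dye and slide confounded: they cannot be told apart. In limma 24 of 76 members (31.6%) had an adjusted p under 0.05, 10 with the higher ratio when FGF18 was in Cy5 and 14 with the lower, where 39.9% of all genes were called. The share of members was thus below that of all genes. MRPS7 differed most, by -1.59, with a mean ratio of -0.90 where FGF18 RNA carried Cy5 and 0.69 where control RNA did (adjusted p = 4.27e-07 in limma, same sign in 3 of 3 replicates). MRPL38 differed by -0.86, from -0.58 to 0.28 (adjusted p = 1.09e-05). MRPL57 was called too, with means of 1.02 and 0.76 (difference 0.26, adjusted p = 0.029), both above 0. In 13 of the 24 called members the orientations had means on opposite sides of 0. The matching count among all called genes was not made, so nothing about the family is read from it. A dye effect of equal size in both orientations cancels in the mean of a replicate, and with the 6 arrays taken as independent 0 members and 65 genes were called.

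**Figure D5:**
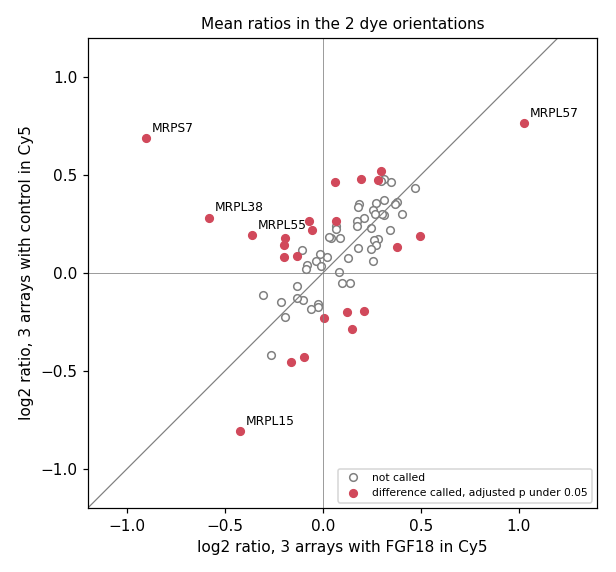
Mean log2 ratio of FGF18 over control of each of the 76 genes on the 3 arrays with Cy5-labelled FGF18 RNA (x axis) and on the 3 with Cy5-labelled control RNA (y axis); red points have an adjusted p under 0.05 for the difference and the diagonal marks equal ratios. MRPS7 lies at -0.90 and 0.69, and MRPL57 at 1.02 and 0.76.

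Genes that work with these proteins were read from lists of the mitochondrial translation system, and 0 passed the adjusted threshold in any list. Ribosomal proteins of mitochondria whose symbols do not start with MRP (6 measured) had a median of 0.03. Of these DAP3, a GTP-binding protein of the small subunit, had -0.43, -0.04 and -0.09 in replicates 1, 2 and 3, and CHCHD1 had 1.22, -0.01 and 0.10. Mitochondrial translation factors (12 measured) had a median of 0.08, and 1 of them, the elongation factor GUF1 with 0.20, 1.19 and 0.29, lay above 0 in every replicate. LRPPRC, an RNA-binding protein that keeps mitochondrial mRNAs stable, had -0.05, 1.11 and 0.26. Assembly and RNA modification factors (13 measured) had a median of 0.00. Among them TFB1M, the methyltransferase of the small ribosomal RNA, was below 0 on all 6 arrays with -0.13, -0.33 and -0.19. Mitochondrial aminoacyl-tRNA synthetases (12 measured) had a median of -0.03, and YARS2 was below 0 on all 6 arrays with -0.43, -0.27 and -0.21.

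Of mitochondrial transcription genes 4 were measured, with a median of 0.11. The protease LONP1, which turns over the mitochondrial DNA-binding factor TFAM, had 0.05, 1.14 and 0.63, and TFAM itself had -0.09, 0.45 and -0.02. TFB2M, a transcription initiation factor, lay below 0 in every replicate with -0.51, -0.06 and -0.14, and the mitochondrial RNA polymerase POLRMT had -0.50, 0.48 and 0.33. Nuclear regulators of mitochondrial genes (10 measured) had a median of -0.01, with 0.38, 0.45 and 0.00 for GABPB1 and 0.31, -1.42 and -1.12 for NRF1, whose replicates thus took opposite sides. Cytosolic ribosomal proteins (68 genes) had a median of 0.12, with replicate medians of 0.40, -0.01 and 0.03. Respiratory chain and ATP synthase subunits (79 genes) had one of 0.20, with 0.24, 0.39 and -0.02. The mean ratio was above 0 in 50 of the 68 cytosolic ribosomal and in 66 of the 79 respiratory genes. The mitochondrial ribosomal proteins, with replicate medians of 0.11, 0.21 and 0.03, were not tested against either list.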

How the data were processed

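RNA of FGF18-treated and control granulosa cells was compared on 6 two-colour arrays. Per the labels' protocols, RNA was amplified by T7 transcription and labelled chemically with Cy3 and Cy5. The deposited scanner files give the mean intensity and median local background of each spot at both wavelengths, per the file headers, without normalization. The deposited table of log2 ratios ran as FGF18 over control and correlated at 1.00 on each array with subtracted, loess-normalized scanner values, with column medians from -0.00375 to 0.0019. No source used here states how the authors made it.

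The scanner values were processed with limma 3.58.1 (R 4.3.3), by normexp background correction (offset 50) and within-array loess (span 0.3, 1426 spots without a gene probe having weight 0). Levels of single channels were scaled between arrays by Aquantile. Arrays with the same number in the title were turned to FGF18 over control and averaged, and lmFit with an intercept and eBayes were fitted to 15229 genes with Benjamini-Hochberg adjustment. The adjusted p-values come from limma. A spot was above background over the mean plus 2 SD of 153 negative control spots. Between 45.7% and 73.5% of gene probes were above it per channel. The number of replicates limits the precision. The dye orientation was fitted on 1 difference per replicate.

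Same-numbered arrays are taken as dye swaps of the same RNA, which no label states outright. Their deviations from the mean of each orientation correlated at 0.92, 0.93 and 0.79 over 30837 probes, but subtracting that mean carries part of each replicate into the others, and their plain ratios correlated at 0.67, 0.77 and 0.27. Where replicates are not separate cultures, p-values measure technical spread only. Symbols came from the platform annotation, in which 21790 of 43794 probes carry 1 symbol, 0 several and 22004 none. In RefSeq names (ARS-UCD2.0) 75 member symbols were current and 1 was an older synonym. No coordinates are given because the files name no build.

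Members, lists and tests were chosen with earlier results of these data known. Values in every replicate are given, by rule, for MRPL57, the 8 highest and 8 lowest members, those on 1 side of 0 on all 6 arrays, those of 1.5-fold or an unadjusted p under 0.05, the widest and smallest spreads, probes that disagree and genes linked to ovarian insufficiency, and in other lists for the 1 to 4 genes with the lowest unadjusted p. The fit was checked on simulated ratios. Alternatives changed background correction, normalization, source of values, dim-probe filter, probe rule, variance prior, replicate block, dye orientation and replicates.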

Additional observations from a re-analysis of the deposited data

Results flagged for a closer look

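In 24 of 76 members the ratio of FGF18 over control depended on the dye orientation in limma, with an adjusted p under 0.05 for the difference (39.9% of all genes did). MRPS7, with a difference of -1.59 (FGF18 in Cy5 minus control in Cy5), had -1.74, -1.41 and -1.62 in replicates 1, 2 and 3. MRPL38 differed by -0.86 and MRPL55 by -0.56. In the other direction MRPS9 differed by 0.44, MRPL14 by 0.40, MRPL15 by 0.38 and MRPL57 by 0.26. Dye and slide cannot be told apart, since the arrays of an orientation are taken to share 1 slide.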

How the results depend on the processing

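Under all 12 alternatives 0 genes had an adjusted p under 0.05 for FGF18 over control, and the lowest adjusted p was 0.293, with the replicate block. MRPL57 had the highest ratio of the family in each, from 0.76 to 1.02. Of 912 ratios of single members under an alternative, 839 kept their sign and 892 moved by less than the SD between replicates. With median centring the median was 0.22 for the family and 0.22 for the large subunit, and 1 member lay below 0 in all replicates. The family's median ran from 0.07 to 0.17 without 1 replicate, the large subunit's from 0.07 to 0.17 and the small subunit's from 0.054 to 0.19. Members at an unadjusted p under 0.05 numbered 15 with the replicate block (7.88% of all genes), 2 with an intensity trend and robust prior (3.09%), 13 with FGF18 in Cy5 alone (9.24%), and 4, 7 and 8 without replicates 1, 2 and 3 (4.11%, 4.498% and 2.34%). Members below 0 in all replicates numbered 10 with FGF18 in Cy5 alone and 7 with the control in Cy5 alone. The matching shares of all genes were not computed, here or for the member below 0 with median centring. Without 1 replicate 27 to 31 members lay above and 10 to 12 below 0 in both that were left, counts that rise because fewer replicates must share a sign. Shares of all genes were not computed for these settings either, so the counts are not read as a trait of the family. For the dye orientation, no replicate block gave 65 genes and 0 members, and leaving out 1 replicate gave 3088 to 5922 genes and 10 to 25 members (14 without replicate 2, 10 without replicate 3). The cause of these moves was not tested.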
